A study of Rattus norvegicus with 12 samples.

Results

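Chemokines and chemokine receptors were followed in RNA sequencing of rat cerebral cortex after embolic stroke, thrombolysis and acupuncture. The genes were chosen by name alone, as every Ccl, Cxcl, Ccr, Cxcr and Ackr gene together with Cx3cl1. They numbered 51 of the 17268 gene rows in the count table, 31 of them chemokine ligands and 20 receptors. Counts were high enough to test 29 of them in at least 1 comparison, and 18 were called in at least 1.

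All 12 samples were cortex of adult male Sprague Dawley rats, an outbred strain, with 3 samples in each of 4 groups and no transgene in any. Surgery in Sham rats introduced no clot, and Model rats had a clot made from donor rat blood injected toward the middle cerebral artery, without further treatment. rt-PA rats had the same clot and were injected with recombinant tissue plasminogen activator, the clot-dissolving enzyme of stroke treatment, at 6 h. rt-PA+Acu rats had the clot, the XingNaoKaiQiao needling of the points Shuigou and Neiguan at 2 h, and rt-PA at 6 h, so acupuncture without rt-PA and rt-PA without a clot are not among the groups. The labels number the samples of a group without saying in words that each is a separate animal, so p-values measure the spread between these samples.

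Chemokines are small secreted proteins that bind G protein-coupled receptors on leukocytes and steer them along a concentration gradient. CXC ligands such as Cxcl1, Cxcl2 and Cxcl3 bind Cxcr2 and draw neutrophils, whereas the CC ligands Ccl2 and Ccl7 bind Ccr2 and draw monocytes, and Ccl3, Ccl4 and Ccl5 draw macrophages and T cells. In the resting brain other ligands are made throughout life: neurons carry Cx3cl1 for the microglial receptor Cx3cr1, and Cxcl12 from vessels and meninges binds Cxcr4. Atypical receptors (Ackr1 to Ackr4) bind chemokines without the usual signal, and several of them remove or transport their ligands. After ischemia, glia, endothelium and arriving leukocytes are all known sources of inflammatory chemokines.

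Promoter sequences are shown first, for 6 ligands with far more counts in rt-PA than in Sham or rt-PA+Acu and with a match to a motif of inflammatory transcription; they were picked with their counts known. Of the 51 genes, 37 had a promoter in the RefSeq table (build GRCr8, 250 bases before the start to 50 after); Ccl2, Ccl3, Ccl4 and Cxcl3 were among those without an entry. The bases from -120 to -1 before the start are printed 5′ to 3′. Capitals mark matches to the kappaB consensus, the binding motif of NF-kappaB, except in Ccl7, where no such match was present and capitals mark a match to the AP-1 motif TGANTCA.
Cxcl1: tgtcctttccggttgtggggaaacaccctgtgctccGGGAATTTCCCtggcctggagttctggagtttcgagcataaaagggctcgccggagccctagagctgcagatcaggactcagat
Cxcl2: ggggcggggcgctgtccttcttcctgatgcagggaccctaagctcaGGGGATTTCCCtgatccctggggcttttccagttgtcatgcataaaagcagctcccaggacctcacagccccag
Cxcl6: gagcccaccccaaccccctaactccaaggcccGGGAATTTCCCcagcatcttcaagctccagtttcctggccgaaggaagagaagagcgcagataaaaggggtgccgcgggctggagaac
Ccl20: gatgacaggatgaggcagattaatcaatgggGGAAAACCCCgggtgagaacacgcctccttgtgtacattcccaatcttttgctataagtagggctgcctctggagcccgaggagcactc
Ccl9: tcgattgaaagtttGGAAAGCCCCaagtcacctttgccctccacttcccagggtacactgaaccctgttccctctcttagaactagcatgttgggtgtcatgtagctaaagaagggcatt
Ccl7: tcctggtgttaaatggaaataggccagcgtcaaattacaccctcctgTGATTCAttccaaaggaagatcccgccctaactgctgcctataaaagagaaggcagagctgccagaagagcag
The windows lie at chr14:17479322-17479441 (minus strand) for Cxcl1, chr14:17467256-17467375 (minus strand) for Cxcl2, chr14:17596418-17596537 (minus strand) for Cxcl6, chr9:91837039-91837158 (plus strand) for Ccl20, chr10:68868878-68868997 (minus strand) for Ccl9 and chr10:67513975-67514094 (plus strand) for Ccl7. Cxcl1 and Cxcl6 carried the same run, GGGAATTTCCC, which holds overlapping matches on opposite strands. In the whole 300 bases, searched on both strands with overlaps allowed, the kappaB consensus was found in 8 of the 37 promoters (21.6%), those of Cxcl1, Cxcl2, Cxcl6, Cxcl10, Cxcl11, Ccl9, Ccl20 and Ccr3. Among all 33469 rat promoters in the table the share was 4.18%. Of the 14 genes called lower in rt-PA+Acu against rt-PA, 9 had an entry and 4 of these a match. Of the 10 called higher in Model than in Sham, 6 had an entry and 2 of these a match. The AP-1 motif was found in 6 of the 37 against 7.33% of all, and the C/EBP motif TTGCNNAA in 8 against 10.6%. The TATA box, searched as TATAAA, was found in 11 of the 37 against 14.2% of all. These matches describe letters in a window and were not tested as binding sites.

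Total counts per library lay between 11678450 and 13616935, so that 1 count of a gene stood for 0.0693 to 0.0873 CPM, the unit of counts scaled to TMM-normalized library size. Neuronal markers were abundant in every library, with summed levels of the 6 genes between 3589 and 6026 CPM. The 4 oligodendrocyte markers summed to 9893 to 14656.5 CPM in Sham but fell as low as 1352 CPM in Model replicate 1. In rt-PA+Acu replicates 1 to 3 they summed to 17594, 7192 and 2672 CPM. On the first principal component, which held 80.2% of the variance of the 500 most variable genes, rt-PA+Acu replicate 3 stood at -11.4, between replicates 1 and 2 of its group (-35.5 and -33.5) and the Model and rt-PA libraries (27.6 to 42.5). Model replicate 3 lay near Sham at Rpl39, a ribosomal protein gene chosen after its values were seen, with 142 counts against 105 to 151 in Sham, whereas the other 8 libraries held 488 to 990. A gene was called when its adjusted p was under 0.05 and its absolute log2 fold change over 1, in the quasi-likelihood test of edgeR, with p-values adjusted by the Benjamini-Hochberg method across every gene tested.

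The first comparison asked what the clot did to chemokine expression. In Model cortex 8 ligands and 2 receptors were called higher than in Sham: the monocyte attractants Ccl2 and Ccl7, the macrophage attractants Ccl3 and Ccl4, the neutrophil attractants Cxcl1, Cxcl2 and Cxcl3, the Cxcr6 ligand Cxcl16, and the receptors Ccr2 and Cxcr2. Lower were Cxcl12, Cxcl14 and the atypical receptor Ackr2. These were 10 higher and 3 lower of the 21 chemokine genes tested, beside 9.43% called higher and 12% called lower among all 12884 genes tested. Genes that are nearly silent in Sham entered the test only through their Model counts, so the share among those tested cannot be read as a share of the family. When every library had to hold at least 10 counts, Cxcl16 alone among the 10 could still be tested and called. Whether more cells of a type or more RNA per cell stood behind a level cannot be told apart in bulk tissue, here and in all comparisons.

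Among the monocyte attractants, Ccl2 and Ccl7 moved from near 0 to 507 counts or more. Ccl2 had 0 counts in all 3 Sham libraries and 2101, 3275 and 1761 in Model replicates 1 to 3. Against a floor of 3 counts over the Sham group, this was at least 2369-fold higher (adjusted p = 2.8e-05). Ccl7, its neighbour on chromosome 10, had 2, 3 and 0 counts in Sham and 573, 1228 and 507 in Model, a log2 fold change of 8.77 (SE 0.65, adjusted p = 3.4e-05) and of 9.39 without Sham replicate 2. Ccl12, a further Ccr2 ligand in the same run of genes, had no Sham count and 1, 4 and 6 in Model, too few to be tested. No Model library overlapped the Sham range for any of these genes.

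Neutrophil attractants rose in the same way. Cxcl1 had 0, 3 and 0 counts in Sham and 276, 174 and 238 in Model, a ratio of 228 with a 95% counting interval of 77.8 to 1110 (adjusted p = 2.7e-05). Cxcl2 had 1, 0 and 0 counts in Sham and 65, 64 and 231 in Model, a ratio of 359 (63.9 to 14200, adjusted p = 0.000351). Model replicate 3 held most of the Cxcl2 counts, and the fitted log2 fold change was 8.05 with it and 7.14 without it. All Sham counts of Cxcl1 came from replicate 2 and the Sham count of Cxcl2 from replicate 1, so without these libraries Sham stood at 0. Cxcl3 was without counts in Sham and had 76, 29 and 90 in Model, which was at least 64.7-fold higher (adjusted p = 0.000659). Of this family Cxcl6, at 0, 0 and 1 in Sham and 0, 5 and 5 in Model, was too low to test. The intervals cover counting error only.

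Ccl3 had 1, 3 and 0 counts in Sham and 41, 89 and 274 in Model, and its log2 fold change was 6.56 (SE 1.03, adjusted p = 0.00103). Ccl4 lies next to it on chromosome 10 and had 2, 3 and 7 counts in Sham and 36, 60 and 137 in Model, with a log2 fold change of 4.25 (SE 0.69, adjusted p = 0.00122). In both, Model replicate 3 was the highest of its group, and without it the changes were 5.51 and 3.55. Without Sham replicate 2 that of Ccl3 was 7.73, and without Sham replicate 3 that of Ccl4 was 4.95. Cxcl16, made as a membrane-bound and a shed form, was already present in Sham at 25, 61 and 28 counts and reached 447, 577 and 522 in Model. Its log2 fold change was 3.78 (SE 0.29, adjusted p = 4e-05), and the groups were far apart.

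Of the receptors that bind these ligands, Ccr2 and Cxcr2 were called higher, from low levels. Cxcr6, which binds Cxcl16, was not called (log2 fold change -0.55, SE 0.50). Ccr2, the receptor of inflammatory monocytes, had 0, 4 and 5 counts in Sham and 11, 22 and 17 in Model, a log2 fold change of 2.44 (SE 0.75, adjusted p = 0.0236). Cxcr2 had 3, 5 and 11 counts in Sham and 16, 31 and 23 in Model (log2 fold change 1.86, SE 0.56, adjusted p = 0.0225). Neither overlapped between groups, but both calls were lost when a library was left out: Ccr2 without Sham replicate 2 (adjusted p = 0.0644) or Model replicate 2 (0.0816), and Cxcr2 without Sham replicate 1 (0.0765), Sham replicate 2 (0.0862) or Model replicate 2 (0.0842). Without Sham replicate 3 their log2 fold changes were 3.05 and 2.57.

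Ligands of the uninjured cortex moved the other way. Cxcl12 had 1945, 2202 and 1753 counts in Sham and 520, 600 and 580 in Model, a log2 fold change of -1.78 (SE 0.11, adjusted p = 1.58e-05). Cxcl14, a ligand expressed by some inhibitory neurons, went from 315, 424 and 335 counts to 150, 95 and 158 (log2 fold change -1.41, SE 0.20, adjusted p = 0.000559). Cx3cl1 had 6300, 7816 and 6631 counts in Sham and 4943, 3984 and 4196 in Model. Its log2 fold change of -0.66 (SE 0.09) had an adjusted p of 0.000599 but stayed under the fold threshold. Ccl27 did not differ beyond its spread, with means of 63.1 ± 8.33 CPM in Sham and 59.0 ± 6.10 CPM in Model (SD, n = 3).

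**Figure D1:**
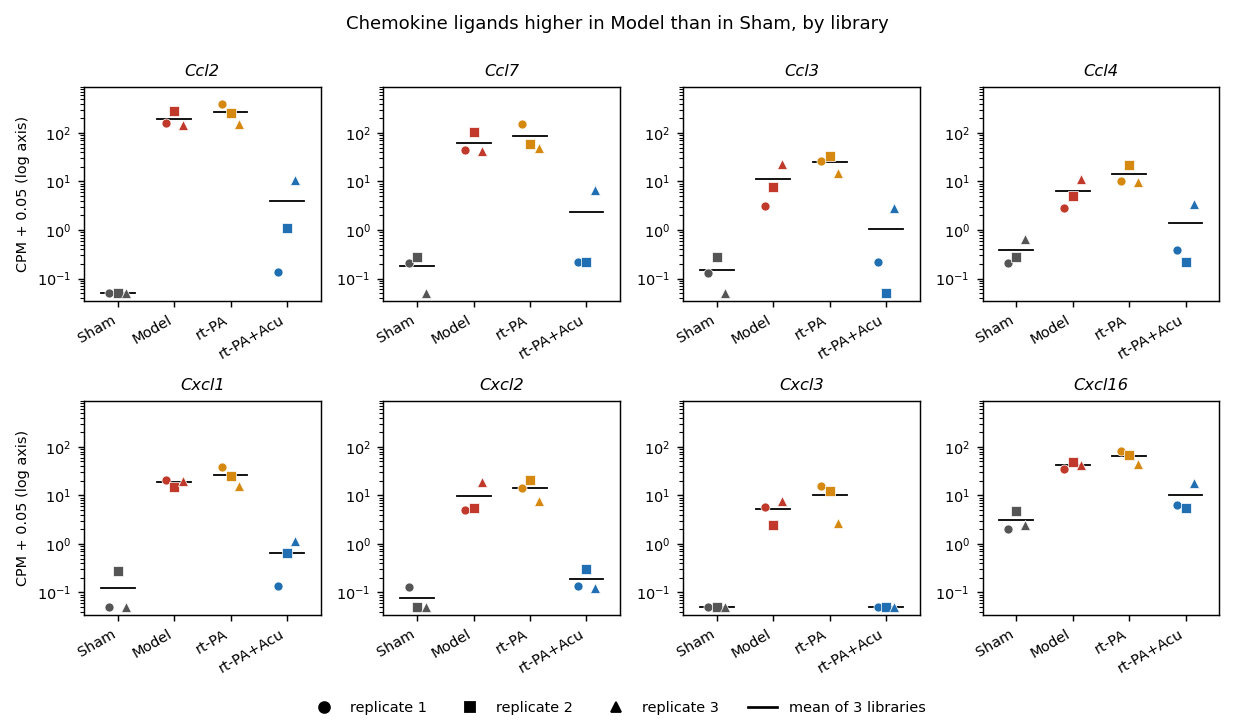
Level of 8 chemokine ligands in each library, as CPM plus 0.05 on a log axis; symbols mark replicates 1 to 3 of each of the 4 groups, and lines the group means. All Model and rt-PA points lie above all Sham points in each panel, and rt-PA+Acu replicate 3 is the highest of its group for Ccl2, Ccl7, Ccl3, Ccl4, Cxcl1 and Cxcl16.

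The lowered receptor was Ackr2, a scavenger that takes up inflammatory CC ligands and degrades them. It had 109, 76 and 116 counts in Sham and 1, 10 and 29 in Model, a log2 fold change of -2.90 (SE 0.69, adjusted p = 0.00774). Model replicate 3 was its highest Model library, and without it the change was -4.16. Ackr1, the Duffy receptor of venules, and Ackr3, the scavenger of Cxcl12, did not differ beyond their spread, at log2 fold changes of -0.11 (SE 0.24) and -0.49 (SE 0.37). Also tested and not called were Cxcr4 (log2 fold change 0.91, SE 0.49), Cxcr6 (-0.55, SE 0.50) and Ccr3 (-0.89, SE 0.70).

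Cell type markers differed between these groups too. The summed level of the 8 neutrophil markers ranged from 7.35 to 12.4 CPM in Sham and from 12.8 to 24.0 CPM in Model, with Mpo and Elane at 0 in all libraries. Of the 5 tested, Il1r2, a decoy receptor for interleukin 1, was called higher (means 0.136 and 7.29 CPM, log2 fold change 5.66, SE 0.40, adjusted p = 2.73e-05), whereas S100a8 (0.26), S100a9 (0.32) and Csf3r (-0.56) were not called. The 8 monocyte and macrophage markers summed to 120.0 to 185 CPM in Sham and 254 to 327 CPM in Model. Of the 7 tested, Cd14 (means 0.827 and 91.2 CPM) and Cd68 (means 0.594 and 3.78 CPM) were called higher. The other 5 were not called, among them Lyz2 (0.85), Cd163 (0.80) and Vcan (-0.07). The 7 measured microglial markers went from 575 to 722 CPM to 440 to 522 CPM, and within them P2ry12, a receptor of resting microglia, had a log2 fold change of -3.64 (SE 0.16, adjusted p = 4.31e-06). Endothelial markers (7 measured) ranged from 271 to 300 CPM in Sham and from 308 to 535 CPM in Model. Of these 7, Kdr, a receptor of vascular endothelial growth factor, was called higher (means 16.4 and 117 CPM, log2 fold change 2.84, SE 0.20, adjusted p = 2.6e-05) and Emcn lower (-1.25, SE 0.22, adjusted p = 0.00189), whereas Tek (-0.52) and Vwf (-0.18) were not called. T and NK cell markers (7 measured) stayed under 4 CPM and the 4 B cell markers under 1 CPM in both groups. The part of these cells in the chemokine differences was not tested.

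The second comparison asked what rt-PA at 6 h added to the clot. No chemokine gene was called in either direction by edgeR among the 26 tested, and neither was any of all 12941 genes tested (0% higher and 0% lower). At an unadjusted p under 0.05 there were 7 chemokine genes higher and 1 lower, beside 5.19% higher and 4.73% lower among all genes. DESeq2, an alternative tool, called 3 higher and 0 lower, beside 0.473% and 0.196% of the 12258 genes to which it gave an adjusted p. The inflammatory ligands of Model cortex overlapped between the groups. Ccl2 had 5583, 3634 and 2034 counts in rt-PA (log2 fold change 0.46, SE 0.36, adjusted p = 0.732) and Ccl7 had 2188, 807 and 660 (0.45, SE 0.50, adjusted p = 0.817). For Ccl7 the sign depended on rt-PA replicate 1, without which the change was -0.24. Cxcl1 had 553, 346 and 212 counts in rt-PA and Cxcl2 208, 287 and 102, at log2 fold changes of 0.51 (SE 0.31) and 0.54 (SE 0.57).

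The 3 genes that DESeq2 called were Ccl12, Ccr2 and Cxcr2. Ccl12 had 1, 4 and 6 counts in Model and 41, 78 and 10 in rt-PA, without overlap (edgeR log2 fold change 3.32, SE 0.86, adjusted p = 0.334; DESeq2 adjusted p = 0.0169). Ccr2 had 220, 60 and 53 counts in rt-PA, all above the highest Model library at 22 (2.52, SE 0.62, adjusted p = 0.326; DESeq2 adjusted p = 0.00406). Cxcr2 had 212, 66 and 56 counts in rt-PA, above the Model maximum of 31 (2.04, SE 0.56, adjusted p = 0.348; DESeq2 adjusted p = 0.0217). Without rt-PA replicate 1 the edgeR changes were 1.58 for Ccr2 (adjusted p = 0.64) and 1.21 for Cxcr2 (adjusted p = 0.679). That library was the highest for both receptors, and it was also highest of all 12 libraries for 10 of the 18 called chemokine genes. In that library the neutrophil markers summed to 91.6 CPM, against 42.7 and 19.5 CPM in rt-PA replicates 2 and 3, and the monocyte and macrophage markers to 626 CPM against 409.9 and 396 CPM. The 4 meningeal fibroblast markers summed to 209.7, 52.9 and 132 CPM in rt-PA replicates 1 to 3, above the 20.1 to 47.5 CPM of Model, though none was called. The part of these cells in the levels was not tested.

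Cx3cl1 had the smallest adjusted p of the chemokine genes in rt-PA vs Model, but its change was under the fold threshold. It had 2825, 2948 and 2716 counts, all below the lowest Model library at 3984, and its log2 fold change was -0.80 (SE 0.09). Its unadjusted p of 2.24e-05 was the third smallest of all genes tested, with an adjusted p of 0.0847, which is the smallest reached in this comparison. Ackr3 had 397, 375 and 231 counts in rt-PA against 101, 79 and 236 in Model (log2 fold change 1.08, SE 0.41, adjusted p = 0.446), with Model replicate 3 inside the rt-PA range. Without that library the change was 1.72 (adjusted p = 0.125). Ackr1 (0.68, SE 0.23) and Cxcl16 (0.63, SE 0.23) also had unadjusted p under 0.05, with adjusted p of 0.413 and 0.424. Ccl3 (1.17, SE 0.63), Ccl4 (1.14, SE 0.53), Cxcl3 (0.97, SE 0.63), Ccl9 (1.58, SE 0.71) and Ccl20 (1.12, SE 1.23) overlapped between rt-PA and Model, as did Cxcl12 (0.17, SE 0.22), Cxcl14 (-0.37, SE 0.25), Ccr7 (0.09, SE 0.62) and Ackr2 (-0.15, SE 0.94). Without Model replicate 3 the changes were 2.22 for Ccl3 (adjusted p = 0.192), 1.84 for Ccl4 (adjusted p = 0.241) and 1.44 for Cxcl2 (adjusted p = 0.262).

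**Figure D2:**
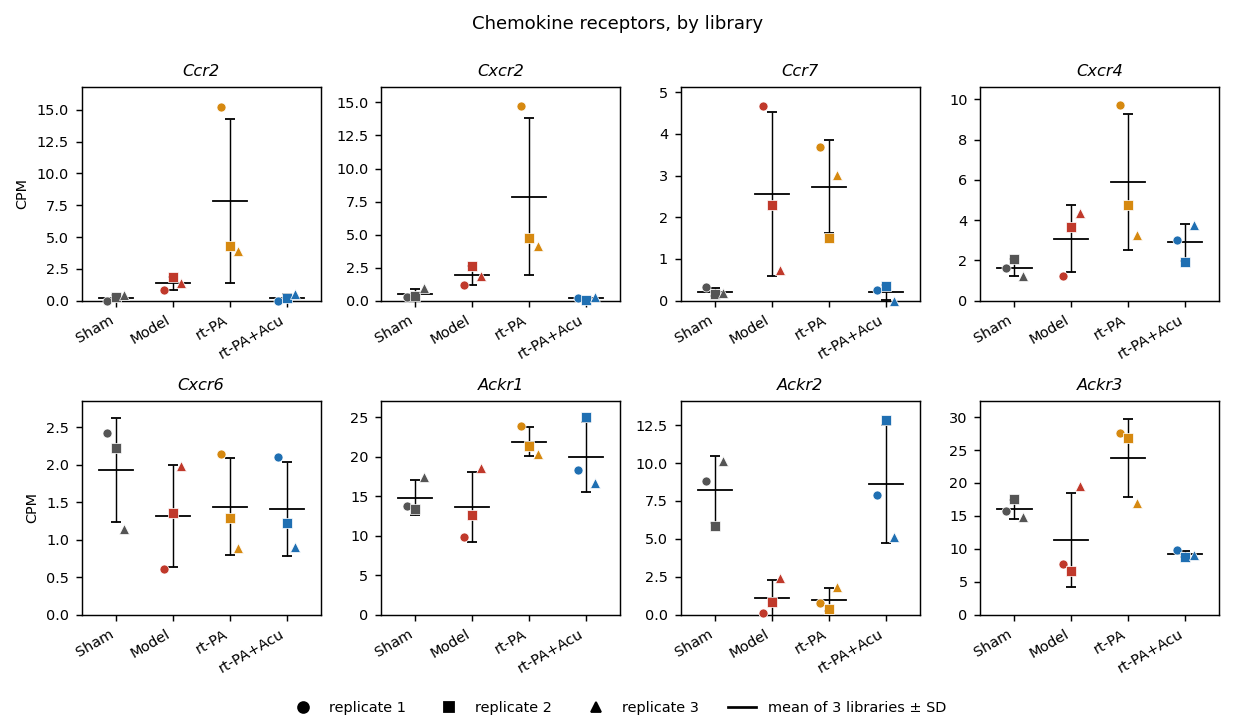
Level of 8 chemokine receptors in each library, in CPM on linear axes that start at 0; symbols mark replicates, lines the mean and bars the SD of 3 libraries. rt-PA replicate 1 stands at 15.2 CPM for Ccr2 and 14.7 CPM for Cxcr2, Ackr2 is high in Sham and rt-PA+Acu and low in Model and rt-PA, and Cxcr6 overlaps between all groups.

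The third comparison asked how cortex differed when acupuncture preceded rt-PA. In rt-PA+Acu 10 ligands and 4 receptors were called lower than in rt-PA, and Ackr2 was called higher. These were 14 lower and 1 higher of the 25 chemokine genes tested, beside 8.16% lower and 7.17% higher among all 12999 genes tested. The 10 genes called higher in Model than in Sham, from 6 other libraries, were all among the 14. Ccl9, Ccl20, Ccr7 and Ackr3 made up the rest. Over all genes, 696 were called higher in Model and lower in rt-PA+Acu, which is 57.3% of the 1215 and 65.6% of the 1061. As before, genes near 0 in rt-PA+Acu entered the test through their rt-PA counts.

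Among the monocyte attractants Ccl2 had 1, 12 and 142 counts in rt-PA+Acu replicates 1 to 3, against 2034 or more in rt-PA. Its log2 fold change was -6.03 (SE 1.01, adjusted p = 0.0053). Ccl7 had 2, 2 and 89 counts, a log2 fold change of -5.13 (SE 1.02, adjusted p = 0.00902). Replicate 3 held most counts of both genes, and without it the changes were -8.86 and -8.89. Without rt-PA replicate 1 that of Ccl7 was -4.45. Ccl12, with 1, 3 and 4 counts against 41, 78 and 10 in rt-PA, had too few counts to be tested.

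The neutrophil attractants were close to 0 in all 3 rt-PA+Acu libraries. Cxcl1 had 1, 7 and 15 counts against 212 or more in rt-PA, a log2 fold change of -5.38 (SE 0.60, adjusted p = 0.00153), or -6.21 without rt-PA+Acu replicate 3. Cxcl2 had 1, 3 and 1 counts (log2 fold change -6.60, SE 0.60, adjusted p = 0.00112), or -7.32 without rt-PA+Acu replicate 2. Cxcl3 had no count in rt-PA+Acu and 226, 171 and 36 in rt-PA, which was at least 126-fold lower (adjusted p = 0.00634). Cxcl6 had no count in rt-PA+Acu and 42, 28 and 8 in rt-PA, at least 22.8-fold lower, but was not tested.

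Ccl3 had 2, 0 and 37 counts in rt-PA+Acu and 372, 467 and 204 in rt-PA (log2 fold change -4.58, SE 0.90, adjusted p = 0.0086). Ccl4 had 4, 2 and 46 counts against 147, 311 and 130 (log2 fold change -3.35, SE 0.85, adjusted p = 0.0205). Again replicate 3 was the highest rt-PA+Acu library, and without it the changes were -8.02 and -5.71. The Ccl4 call was lost without rt-PA replicate 2 (adjusted p = 0.0553), rt-PA+Acu replicate 1 (0.057) or rt-PA+Acu replicate 2 (0.0552). Cxcl16 had 76, 64 and 239 counts against 1169, 958 and 609, a log2 fold change of -2.69 (SE 0.46, adjusted p = 0.00546) and of -3.43 without rt-PA+Acu replicate 3.

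A pair of ligands was called here and not tested in Model against Sham. Ccl9, which binds Ccr1, had 4, 2 and 0 counts in rt-PA+Acu and 95, 53 and 26 in rt-PA (log2 fold change -4.56, SE 0.81, adjusted p = 0.00627). It was -5.50 without rt-PA+Acu replicate 1 and -3.94 without replicate 3. In Sham it had 1, 7 and 4 counts and in Model 4, 14 and 32. Ccl20, the ligand of Ccr6, had 0, 1 and 0 counts in rt-PA+Acu and 148, 27 and 29 in rt-PA, a ratio of 179 (31.7 to 7087, adjusted p = 0.00607). Without rt-PA replicate 1 its fitted log2 fold change was -5.79, and without rt-PA+Acu replicate 2, the only one with a count, -9.01. Its Model libraries were far apart, with 3, 75 and 1 counts, and Sham had none.

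The receptors called lower had different roles. Ccr2 had 0, 2 and 7 counts in rt-PA+Acu (log2 fold change -4.96, SE 0.91, adjusted p = 0.00691), or -4.04 without rt-PA replicate 1 and -6.35 without rt-PA+Acu replicate 3. Cxcr2 had 2, 1 and 4 counts (-5.30, SE 0.74, adjusted p = 0.00298), or -4.48 without rt-PA replicate 1. Ccr7, which guides dendritic cells and lymphocytes, had 3, 4 and 0 counts against 53, 21 and 41 in rt-PA (-3.76, SE 0.75, adjusted p = 0.00898). It was -4.40 without rt-PA+Acu replicate 2 and -3.14 without replicate 3, and Ccr7 had 4, 2 and 2 counts in Sham and 61, 27 and 9 in Model. Ackr3 had 116, 101 and 122 counts against 397, 375 and 231 (-1.37, SE 0.21, adjusted p = 0.00419). In none of these receptors did the rt-PA and rt-PA+Acu libraries overlap.

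Ackr2 was the one chemokine gene called higher. It had 94, 147 and 68 counts in rt-PA+Acu and 11, 5 and 25 in rt-PA, a log2 fold change of 3.11 (SE 0.58, adjusted p = 0.00745), or 3.91 without rt-PA replicate 3. Cx3cl1 had 5116, 4897 and 3604 counts against 2825, 2948 and 2716 (0.89, SE 0.18, adjusted p = 0.00999), under the fold threshold, and without rt-PA+Acu replicate 3 it was called at 1.09 (adjusted p = 0.000819). Cxcl14 had 228, 159 and 196 counts against 117, 96 and 138 (0.92, SE 0.22, adjusted p = 0.0155). It too was called when a library was left out, at 1.08 without rt-PA replicate 3 and 1.01 without rt-PA+Acu replicate 2. Cxcl12 overlapped between the groups, with 1019, 1170 and 627 counts against 1021, 534 and 625 (0.59, SE 0.32, adjusted p = 0.181). Tested and not called were also Cxcr4 (-1.02, SE 0.46), Ccl27 (-0.35, SE 0.19), Cxcl13 (0.48, SE 0.49), Ccr10 (0.50, SE 0.58), Ackr1 (-0.13, SE 0.18) and Cxcr6 (-0.04, SE 0.49).

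**Figure D3:**
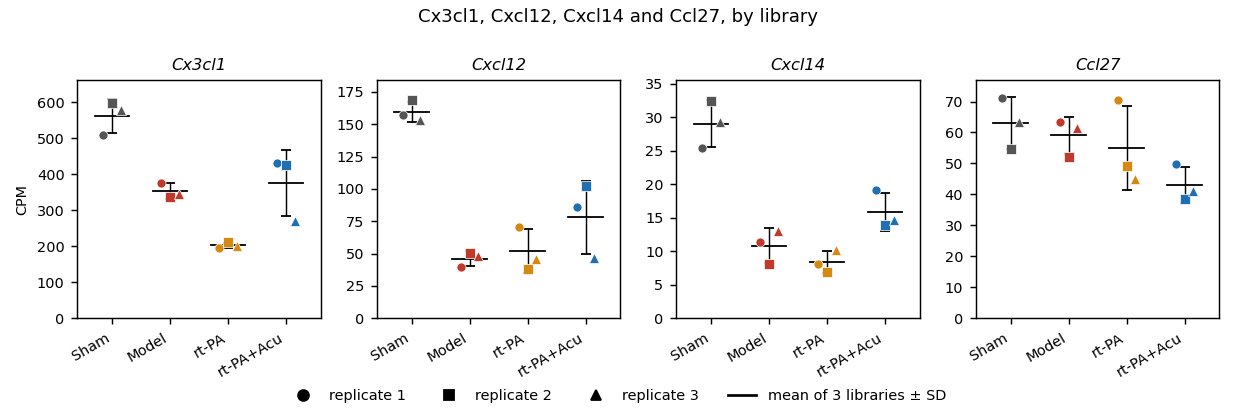
Level of Cx3cl1, Cxcl12, Cxcl14 and Ccl27 in each library, in CPM on linear axes that start at 0; symbols mark replicates, lines the mean and bars the SD of 3 libraries. Cx3cl1 averages 562 CPM in Sham, 354 CPM in Model, 202 CPM after rt-PA alone and 376 CPM in rt-PA+Acu, whereas for Ccl27 Sham, Model and rt-PA overlap, and rt-PA+Acu lies below Sham and Model.

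Summed markers of neutrophils and of monocytes and macrophages were lower in rt-PA+Acu as well. The 8 neutrophil markers summed to 4.19 to 5.64 CPM there and 19.5 to 91.6 CPM in rt-PA. Of these markers, S100a9 had a log2 fold change of -5.31 (SE 0.93, adjusted p = 0.00607). The 8 monocyte and macrophage markers summed to 111 to 133 CPM against 396 to 626 CPM, and the 7 endothelial markers to 170 to 202 CPM against 441 to 609 CPM. Microglial markers summed to 491 to 545 CPM against 457 to 496 CPM, and P2ry12 was called higher (log2 fold change 3.06, SE 0.32, adjusted p = 0.00133). In replicate 3, where Ccl2, Ccl3, Ccl4 and Ccl7 were highest, the neutrophil markers summed to 4.19 CPM, the lowest of the group. The monocyte and macrophage sum was also lowest there at 111 CPM, but its members differed: Vcan was at 60.2 CPM against 96.0 and 97.1, whereas Cd14 was at 9.95 CPM against 0.926 and 2.79, and Lyz2 at 29.6 CPM against 24.5 and 20.8. The 7 T and NK cell markers were the highest there, at 3.74 CPM against 1.43 and 1.39 CPM, and so were the endothelial markers at 202 CPM. Beyond these values, the part of such cells was not tested.

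**Figure D4:**
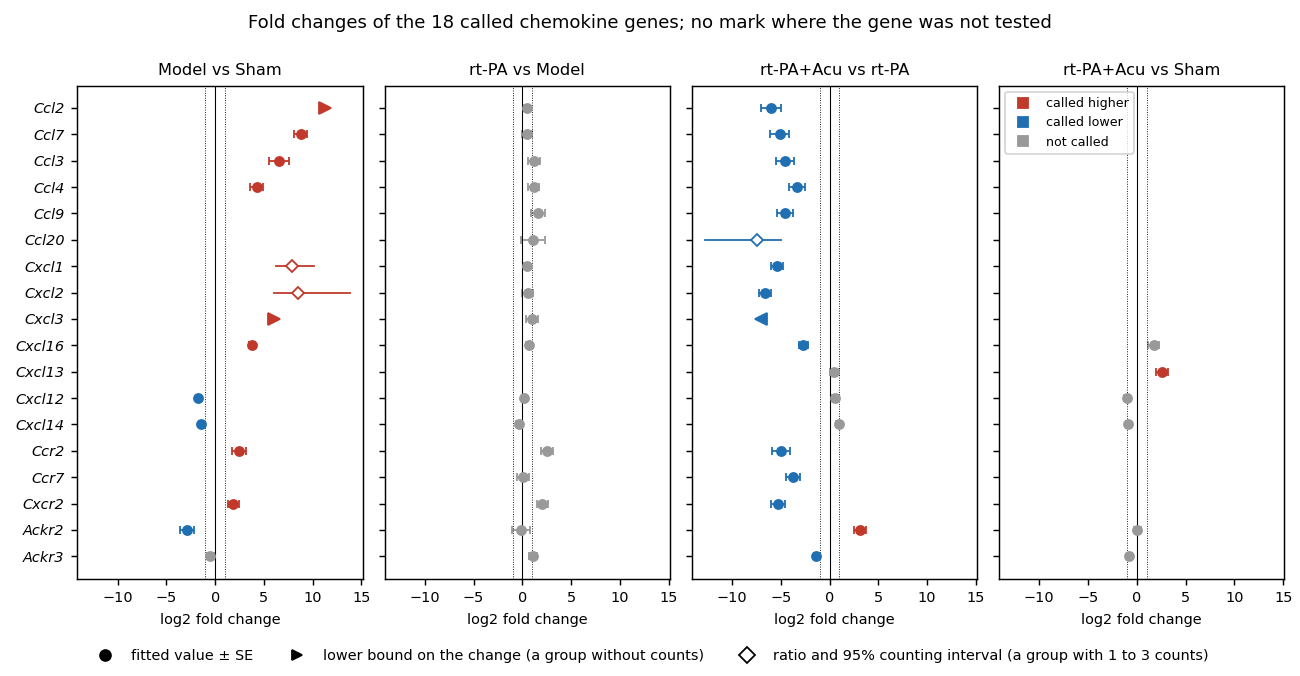
Log2 fold changes of the 18 chemokine genes called in at least 1 comparison; circles are fitted values with SE, triangles lower bounds where a group had no count, and diamonds ratios with 95% counting intervals where a group had 1 to 3 counts. Red marks genes called higher, blue called lower and grey not called, dotted lines the fold threshold; the 10 genes in red in Model vs Sham are in blue in rt-PA+Acu against rt-PA.

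The fourth comparison set rt-PA+Acu against Sham, to show where treated cortex still stood apart from uninjured cortex. Of 12 chemokine genes tested, Cxcl13 was called higher and none lower, beside 0.916% higher and 1.14% lower among all 12775 genes tested. Of the 10 genes called higher in Model than in Sham, Cxcl16 alone could be tested here. The others had too few counts in these groups, so the lack of a call does not place them at the Sham level. At an unadjusted p under 0.05 there were 2 higher and 5 lower, beside 10.3% higher and 12.9% lower among all genes. DESeq2 called 4 higher and 2 lower, beside 1.49% and 1.69% of the 13380 genes to which it gave an adjusted p. Cxcl13, the attractant of B cells, had 1, 3 and 2 counts in Sham and 10, 17 and 11 in rt-PA+Acu, without overlap (log2 fold change 2.61, SE 0.60, adjusted p = 0.0479). Leaving out any 1 of the 6 libraries ended the call, with adjusted p from 0.0554 (without rt-PA+Acu replicate 3) to 0.167 (without Sham replicate 2). In Model Cxcl13 had 1, 5 and 1 counts and in rt-PA 6, 12 and 13.

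Ligands of the uninjured cortex lay below Sham in value. Cxcl12 had 1019, 1170 and 627 counts in rt-PA+Acu, all under the lowest Sham library at 1753 (log2 fold change -1.03, SE 0.24, adjusted p = 0.0505). It was called without rt-PA+Acu replicate 2 at -1.27 (adjusted p = 0.046). Cxcl14 (-0.87, SE 0.16, adjusted p = 0.0268) and Ackr3 (-0.79, SE 0.15, adjusted p = 0.0266) were under the fold threshold, though Cxcl14 was called at -1.02 without rt-PA+Acu replicate 1. Cx3cl1 was at -0.58 (SE 0.18, adjusted p = 0.107), Ccl27 at -0.55 (SE 0.14, adjusted p = 0.0598) and Cxcl16 at 1.71 (SE 0.52, adjusted p = 0.0996), with all rt-PA+Acu libraries of Cxcl16 above the Sham maximum of 61 counts. DESeq2 called Cxcl16 (adjusted p = 0.0127), and without rt-PA+Acu replicate 3 its edgeR change was 0.96 (adjusted p = 0.17). Ackr2 overlapped with Sham, at a log2 fold change of 0.06 (SE 0.35). Too few libraries held enough counts of Ccl2 for the edgeR test here, and it had none in Sham. Its 155 counts over the rt-PA+Acu group were at least 51.9-fold higher than in Sham, with 142 of them in replicate 3.

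Other genes of the family were tested and not called, or were too low to test. Of 29 chemokine genes tested in at least 1 comparison, 11 were called in none, among them Ccl12, Ccl24, Ccl27, Cx3cl1, Ackr1, Ccr3, Ccr10, Ccrl2, Cxcr4 and Cxcr6. Cxcr4, the receptor of Cxcl12, had 20, 27 and 14 counts in Sham, 16, 43 and 53 in Model, 140, 66 and 44 after rt-PA alone and 36, 22 and 50 in rt-PA+Acu. Without Model replicate 1, its lowest Model library, it was called in Model against Sham at a log2 fold change of 1.29 (adjusted p = 0.0192). Ccl24, an attractant of eosinophils, averaged 0.210 CPM in Sham, 0.660 in Model, 1.19 after rt-PA alone and 0.0811 in rt-PA+Acu. Its receptor Ccr3 averaged 1.11, 0.605, 0.240 and 0.603 CPM in the same order. Ccrl2, an atypical receptor that presents chemerin, averaged 0.385, 0.527, 0.998 and 0.245 CPM, and Ccr10, the receptor of Ccl27, 0.623, 0.547, 0.651 and 0.913 CPM.

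In 22 genes the counts were too few for any test: the ligands Ccl1, Ccl5, Ccl11, Ccl17, Ccl19, Ccl21, Ccl25, Ccl26, Ccl28, Cxcl6, Cxcl9, Cxcl10, Cxcl11 and Cxcl17, and the receptors Ccr1l1, Ccr4, Ccr6, Ccr8, Ccr9, Cxcr1, Cxcr3 and Cxcr5. Ccl26 and Ccr8 had no count in any library. The interferon-induced Cxcr3 ligands Cxcl9 and Cxcl11 had at most 3 and 7 counts in a library, and Cxcl10 had at most 23, in rt-PA+Acu replicate 3. Ccl5, an attractant of T cells, had 3, 0 and 0 counts in Sham, 20, 1 and 4 in Model, 3, 6 and 3 after rt-PA alone and 0, 0 and 1 in rt-PA+Acu, so that 1 Model library held 20 of its 41 counts. Ccr6, the receptor of Ccl20, had no count in Sham, 1, 2 and 1 in Model, 9, 6 and 5 after rt-PA alone and 0, 0 and 1 in rt-PA+Acu. Its ratio of rt-PA to rt-PA+Acu was 17.5 (2.80 to 726). Ccl21, a ligand of Ccr7, had its highest counts in uninjured cortex, with 12, 9 and 10 in Sham, 3, 4 and 4 in Model, 2, 1 and 5 after rt-PA alone and 0, 1 and 1 in rt-PA+Acu, without overlap between Sham and any other group. These genes were not tested, so no difference among them was called, and the interval of Ccr6 covers counting error only. At this depth small differences could not be resolved.

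Several of the genes lie side by side. In RefSeq's order of protein-coding genes Ccl2, Ccl7, Ccl11, Ccl12 and Ccl1 form a run on chromosome 10, Ccl3 and Ccl4 a pair on the same chromosome, and Cxcl2 and Cxcl1 a pair on chromosome 14. Within the first run Ccl2 and Ccl7 were called in both Model vs Sham and rt-PA+Acu against rt-PA, whereas Ccl11, an eosinophil attractant, had at most 9 counts in a library and Ccl1 at most 2. On chromosome 14 Cxcl1 and Cxcl2 were called in both comparisons, whereas the run Cxcl11, Cxcl10 and Cxcl9 could not be tested. Another gene overlapped 15 of the 51 in RefSeq, such as Zmynd15 with Cxcl16 and Il11ra1 with Ccl27. Since the strand setting of the counting is not given in the sources used here, counts of these 15 are uncertain, as are those of the closely similar Cxcl1, Cxcl2 and Cxcl3 where reads could be shared.

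Genes that act before and after the chemokines were followed as lists. The list of inducers of chemokine transcription held 15 cytokines, transcription factors and regulators, including the NF-kappaB inhibitor Nfkbia, and 14 were measured. Of 11 tested in Model vs Sham, 7 were called higher and 1 lower, where 9.43% and 12% of all genes were. Their median log2 fold change was 1.56 beside 0.01 for all genes tested. In rt-PA+Acu against rt-PA 9 of 13 were called lower and 0 higher, where 8.16% and 7.17% of all genes were, with a median of -1.63 beside -0.00. None of them was called in rt-PA vs Model (13 tested) or rt-PA+Acu vs Sham (10 tested), by edgeR; at an unadjusted p under 0.05 there were 2 in each, where 5.19% higher and 4.73% lower, and 10.3% and 12.9%, of all genes were. Il1b, an early cytokine of microglia and macrophages, averaged 0.162 CPM in Sham, 3.63 in Model, 10.5 after rt-PA alone and 0.274 in rt-PA+Acu. It rose by 4.40 on the log2 scale in Model (SE 1.06, adjusted p = 0.00817) and fell by 5.21 in rt-PA+Acu against rt-PA (SE 0.59, adjusted p = 0.00163).

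Il6 averaged 0.718, 8.71, 16.01 and 0.749 CPM in this order, with log2 fold changes of 3.57 (SE 0.75, adjusted p = 0.00439) and -4.35 (SE 0.62, adjusted p = 0.00324) in these comparisons. Stat3, the transcription factor that Il6 signals through, averaged 80.6, 397, 393 and 164 CPM, with changes of 2.31 (SE 0.12, adjusted p = 8.25e-06) and -1.26 (SE 0.33, adjusted p = 0.0234). Irf7, a factor of the interferon response, was the member called lower in Model (-2.18, SE 0.80, adjusted p = 0.0457) and was not called in rt-PA+Acu (0.48, SE 0.41).

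Chemokine receptor signalling, 19 genes with 17 in the table and tested, had fewer calls. In Model 3 were called higher and 1 lower, with a median of 0.22, where 9.43% of all genes were called higher and 12% lower. In rt-PA+Acu against rt-PA 4 were called lower, with a median of -0.28, where 8.16% of all genes were. Rgs1, which switches off the G proteins of chemokine receptors in leukocytes, changed by 3.82 (SE 0.41, adjusted p = 0.00016) and -3.63 (SE 0.39, adjusted p = 0.00142). Fgr, a kinase of myeloid cells, changed by 2.86 (SE 0.36, adjusted p = 0.000367) and -2.24 (SE 0.28, adjusted p = 0.0022), and it was the member of this list that was also called in rt-PA+Acu vs Sham (1.71, SE 0.30, adjusted p = 0.0223). Rgs10, a brake of microglial activation, was lower in Model (-1.43, SE 0.16, adjusted p = 0.000215), and Elmo1, which links receptors to cell movement, was higher (1.01, SE 0.13, adjusted p = 0.000451). Elmo1 averaged 92.8 CPM in Sham, 185 in Model, 96.1 after rt-PA alone and 79.4 in rt-PA+Acu. In rt-PA vs Model none of the 17 was called by edgeR, with 5 at an unadjusted p under 0.05, where 5.19% of all genes were higher and 4.73% lower.

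Chemokine system genes outside the naming pattern were Cx3cr1, Xcl1, Xcr1, Pf4 and Ppbp. Cx3cr1, the microglial receptor of Cx3cl1, averaged 79.7 CPM in Sham and 51.9 CPM in Model, a log2 fold change of -0.61 (SE 0.15, adjusted p = 0.00778) under the fold threshold, and was not called elsewhere. Pf4, made by platelets and brain macrophages, fell by 1.77 on the log2 scale in rt-PA+Acu against rt-PA (SE 0.49, adjusted p = 0.0278). Ppbp, a defining gene of platelets, had no count in any library. Xcl1 and Xcr1 were too low to test.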

How the data were processed

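The authors deposited raw counts per gene symbol for 12 rat cortex libraries, made from paired-end reads of 150 bases of stranded poly(A) libraries aligned with STAR 2.7.10a to mRatBN 7.2 and counted with Salmon 1.9.0; the submitters' processing notes also list featureCounts 2.0.1. Use of the molecular identifiers in the adapters and the strand setting are not given in the sources used here. The paper states DESeq2 for its tests; here it is an alternative.

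Totals of 11678450 to 13616935 counts were scaled by TMM factors (0.949 to 1.08), and CPM was computed from them. Every comparison was fitted to the 6 libraries it concerns in R 4.3.3 with edgeR 4.0.16, over genes passing filterByExpr, with a two-sided quasi-likelihood test and Benjamini-Hochberg adjustment; SE is the log2 fold change divided by the root of F. Where a group had no count, the fold is a bound against 3 counts over the group, and with 1 to 3 counts a ratio with its exact 95% interval. The fit was tested on simulated data. Alternatives used DESeq2 1.42.0, library size alone, 2 other filters, 1 fit over 12 libraries, a replicate block and leaving out each library. Libraries of a group differed by more than sampling noise. Sequences and gene order came from RefSeq (GRCr8).

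Chemokine genes called in at least 1 comparison are described with all values, genes tested but never called by levels, and up to 4 genes of each other list by the largest change in Model vs Sham. The members, lists and tests were chosen with earlier results of these data known. The counts of genes include 1 member whose values are not reported here.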

Additional observations from a re-analysis of the deposited data

How the results depend on the processing

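Of 728 alternative values of single chemokine genes, 695 kept their direction and their side of the threshold. Without rt-PA replicate 1 the log2 fold change of Ccl7 in rt-PA vs Model turned to -0.24, the lowest of a range that reached 1.01 as single libraries were left out. The cause was not tested for this or any change below, except that the filters test fewer genes.

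With at least 10 counts in every library, 1 gene was called higher in Model than in Sham, and in rt-PA+Acu against rt-PA 0 were called higher and 2 lower. Without a fold threshold 5 were lower in Model vs Sham (all genes 6951), 3 higher in rt-PA+Acu against rt-PA (all genes 4522) and 2 lower in rt-PA+Acu vs Sham (all genes 651). In rt-PA vs Model DESeq2 called 3 chemokine genes higher and 82 of all genes, and 1 fit over 12 libraries 2 of all genes. In rt-PA+Acu vs Sham DESeq2 called 4 higher and 2 lower (all genes 426), and library size alone 1 lower. No filter gave 0 higher and 2 lower, at least 10 counts 0 higher and 1 lower, and 1 fit over 12 libraries 1 lower. Cxcl12 was gained lower under each of these, with adjusted p from 0.000949 to 0.048. DESeq2 and no filter each gained a further lower gene, not named here. Leaving out 1 library gave 8 to 12 higher and 3 to 4 lower in Model vs Sham (all genes 2511 to 3133). It gave 0 to 3 of all genes in rt-PA vs Model, 1 to 2 higher and 14 to 17 lower in rt-PA+Acu against rt-PA (all genes 1445 to 2510), and 0 to 1 higher and 0 to 1 lower in rt-PA+Acu vs Sham (all genes 82 to 359).

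Same-numbered samples did not deviate together in all pairs (correlations of deviations -0.121 to 0.146), so the numbers are not taken as pairing. With a replicate block 10 were higher and 3 lower for the clot alone, none in rt-PA vs Model (0), 14 lower and 1 higher in rt-PA+Acu against rt-PA, and 0 higher in rt-PA+Acu vs Sham, where Cxcl13 had an adjusted p of 0.098. For genes near 0, depth limits the fold to a bound, since 1 count stands for 0.0693 to 0.0873 CPM.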
